A study of Homo sapiens with 6 samples.

Results

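The genes described here code for the ATP-driven chromatin remodelers of the SWI/SNF, CHD, ISWI and INO80 families and for their subunits, in UM-SCC1, a long-established line of human HNSCC (squamous cell carcinoma of the head and neck). Members were chosen by a rule on gene names, set with earlier results of these data known. It covers all SMARCA to SMARCE genes, the ARID1 to ARID5 genes, all CHD and INO80 genes, and ACTL6A, DPF1, DPF2, BRD7, BRD9, PBRM1, BAZ1A, BAZ1B, BAZ2A, EP400, SRCAP, RUVBL1, RUVBL2 and TRRAP. The rule took 52 of the 14959 genes in the deposited table. One of the 52, INO80B-WBP1, is a read-through gene that joins INO80B to its neighbor. The names of the ARID family also bring in ARID3A, ARID3B, ARID4A, ARID4B, ARID5A and ARID5B, which share the ARID DNA-binding domain but are not subunits of SWI/SNF.

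RNA was sequenced 48 h after transfection, from 3 libraries that received miR-204-5p mimics and 3 that received control mimics. A mimic is a synthetic double-stranded RNA that the cell loads as it would the mature miRNA. The series describes the 3 libraries of each group as independent experiments, all in a single cell line, and every culture was transfected, so no untransfected cells enter the comparison. Each gene has 1 FPKM value per library (mapped fragments scaled to transcript length in kilobases and to 1e6 fragments per library), and groups were compared with limma on log2(FPKM + 1) over all 14959 genes, with a Benjamini-Hochberg adjusted p under 0.05 called a change. Fold changes below are on that log2(FPKM + 1) scale, mimics minus control, and the added 1 shrinks the change of weakly expressed genes.

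A chromatin remodeler uses ATP in a motor subunit to slide, eject or exchange nucleosomes, and so sets which stretches of DNA other proteins can reach. SWI/SNF complexes, known as BAF and PBAF, carry SMARCA4 or SMARCA2 as the motor and open promoters and enhancers, and several of their subunits are often mutated in tumors. ISWI motors space nucleosomes evenly, CHD3 and CHD4 are the motors of the repressive NuRD complex, and INO80, SRCAP and EP400 complexes slide nucleosomes or exchange the histone variant H2A.Z. A miRNA acts mainly through its seed, bases 2 to 8, which pairs with matching sites in the 3'UTR of a messenger RNA.

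The mature miR-204-5p sequence is shown first, because the matches in the remodeler transcripts are read from it. It has 22 bases, with the seed in capitals (RefSeq, GRCh38.p14, chr9:70810031-70810052, minus strand), and miR-211-5p has the same seed.

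miR-204-5p: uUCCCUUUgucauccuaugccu

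The windows of 26 bases printed next are those of the remodeler genes that both changed with the mimics and hold a match of 7 or 8 bases in their longest annotated 3'UTR (GENCODE 29, GRCh38). They are written 5′ to 3′ on the gene's strand as DNA, with the match in capitals. An 8mer pairs with the whole seed and has an A opposite base 1 (AAAGGGAA), a 7mer-m8 pairs with the whole seed (AAAGGGA), and a 7mer-A1 pairs with bases 2 to 7 and has the A (AAGGGAA).

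BAZ1B, 7mer-m8, last exon, chr7:73441599-73441605, minus strand: gttgatcttggcagagtAAAGGGAcg
BAZ2A, 7mer-m8, last exon, chr12:56596165-56596171, minus strand: gtgttccttttacagcaAAAGGGAct
BAZ2A, 7mer-A1, last exon, chr12:56595831-56595837, minus strand: cttaagagaccacaggcAAGGGAAca
SMARCA5, 7mer-A1, last exon, chr4:143554317-143554323, plus strand: cagttctccatttttctAAGGGAAtg
SMARCA5, 7mer-A1, last exon, chr4:143554933-143554939, plus strand: caaatggaaactgtgtgAAGGGAAac
ARID4A, 7mer-m8, last exon, chr14:58373018-58373024, plus strand: gcagccttgcctgtgttAAAGGGAgt
TRRAP, 7mer-m8, last exon, chr7:99012507-99012513, plus strand: ggtagtttgcgtgtaagAAAGGGAga
ARID1B, 8mer, last exon of a 4-exon transcript, chr6:156939931-156939938, plus strand: attcgtaaacatgtatAAAGGGAAgt
ARID1B, 8mer, last exon of a 4-exon transcript, chr6:156941387-156941394, plus strand: gtcttggggaagttttAAAGGGAAca
SMARCE1, 8mer, last exon, chr17:40627455-40627462, minus strand: ctttgattccaaaagtAAAGGGAAta

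Of these, SMARCE1 rose and the other 6 genes fell. The ARID1B matches lie in a transcript that is not the one listed for ARID1B in the table, and the TRRAP match lies outside the short TRRAP transcript listed there.

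The libraries formed an even set. Inferred depth was 13.1 to 16.4 M fragments (M = 1e6), so that a single fragment of a 1 kb transcript gave 0.061 to 0.0765 FPKM. Spearman's rho of FPKM across genes, which are not independent replicates, was 0.9899 to 0.9908 within groups and 0.9733 to 0.9756 between them. All 10 squamous epithelial markers checked, such as KRT5, KRT14 and TP63, were above 1 FPKM on average, with a summed level of 912 to 1000 FPKM with mimics and 1049 to 1067 FPKM with control. They did not share one direction: 6 fell, KRT5, KRT14 and TP63 among them, 3 rose (CDH1, KRT6A and SFN) and 1 did not pass. Over all genes, 16.8% fell and 23.9% rose. Of 8 fibroblast markers, 4 were in the table (COL3A1, DCN, PDGFRA and THY1 were not) and 3 of these averaged under 1 FPKM, with sums of 9.81 to 11.6 and 8.58 to 9.41 FPKM, and LUM was listed at 0 in 3 libraries. Of 7 blood and endothelial markers 5 averaged under 1 FPKM, with sums of 22.5 to 25.0 and 27.2 to 28.3 FPKM made up mainly of CD14 and CD68, and CDH5 was listed at 0 in 1 library. The sums of all 3 lists differed between groups without overlap, and their part in the results below was not tested.

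Remodeler genes changed about as often as other genes, and more of the changes were decreases. With miR-204-5p mimics, 22 of the 52 members changed (42.3%), where 40.8% of all genes did. Of the members, 16 were lower (30.8%, against 16.8% of all genes) and 6 were higher (11.5%, against 23.9% of all genes). The median fold change was -0.09 in the members and 0.03 over all genes, and the median size of the change was 0.19 and 0.18. In 27 of the 52 members the 2 groups of libraries did not overlap, 19 lower and 8 higher. The same held for 8018 of all 14959 genes (53.6%), 3393 lower and 4625 higher. In bulk RNA, less RNA per cell and fewer cells of a kind cannot be told apart.

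The changes were small. Only ARID3A and RUVBL1 passed the test with a fold change of at least 0.5 in size, which 12.0% of all genes did. Most members were well expressed: 49 of the 52 averaged at least 1 FPKM over the 6 libraries. Among all 11504 genes with such a mean, 47.8% changed, 20.1% lower and 27.7% higher. The exceptions were CHD5, DPF1 and INO80C, none of which passed the test, and the CHD5 values rest on an implied 2.54 to 5.86 fragments per library.

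**Figure D1:**
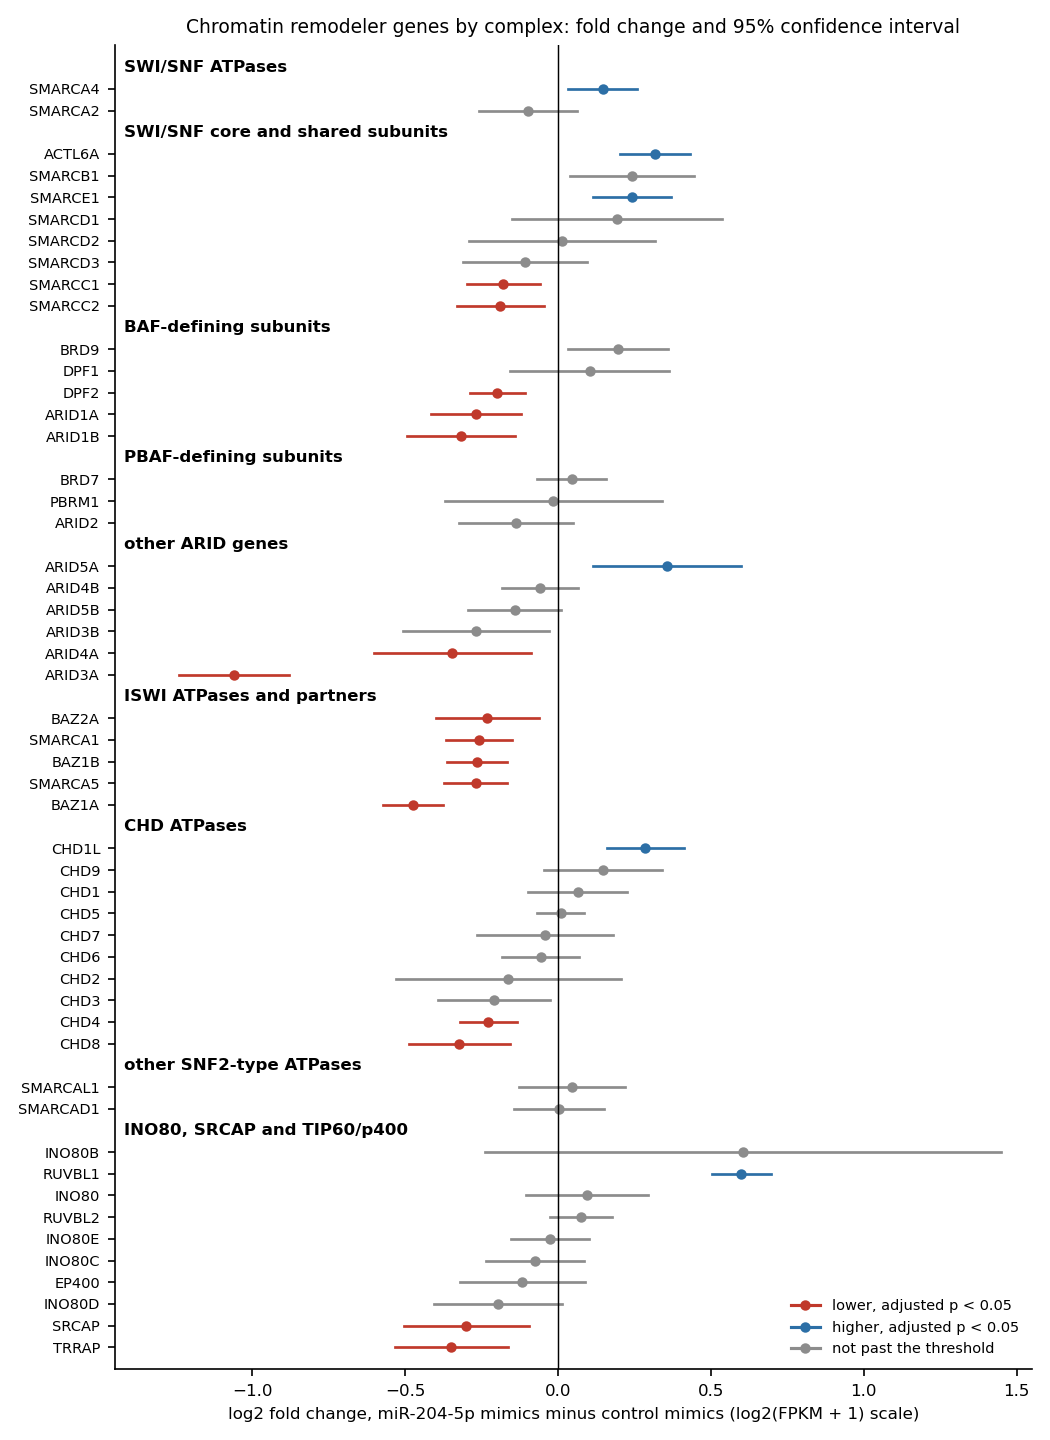
Fold change of 51 remodeler genes (all members but the read-through gene INO80B-WBP1), grouped by complex; the x axis is the log2 fold change on the log2(FPKM + 1) scale, points are estimates and lines 95% confidence intervals from limma (3 libraries per group). Red genes are lower and blue genes higher at an adjusted p under 0.05; all 5 ISWI genes lie left of 0, and ARID3A at -1.06 and RUVBL1 at 0.60 stand farthest out among the genes that changed.

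ARID3A, a transcription factor of the ARID family, had the largest decrease. Its FPKM was 7.85, 7.62 and 8.79 with mimics and 19.5, 17.6 and 16.7 with control. The highest mimic library thus lay far below the lowest control library, and the mean level with mimics, 8.09 ± 0.619 FPKM (SD, n = 3), was 45.1% of the control mean of 17.9 ± 1.39 FPKM. The fold change was -1.06 (SE 0.0750, limma adjusted p = 0.000171). The listed transcript lies at chr19:926037-975934 on the plus strand, and its 3'UTR of 3869 bases holds a 6-base match to the seed and no longer one.

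The other ARID genes outside SWI/SNF did not share one direction. ARID4A, which binds the retinoblastoma protein and is part of a SIN3 corepressor complex, fell (4.40 ± 0.589 against 5.85 ± 0.678 FPKM, fold change -0.35, adjusted p = 0.0414), and its call was lost in 4 of the 12 alternative settings run (without replicate 1 or 2 of the mimics or replicate 1 or 3 of the control, adjusted p = 0.0976 to 0.122). ARID5A, a DNA- and RNA-binding protein, rose from 2.31 ± 0.396 to 3.21 ± 0.178 FPKM (fold change 0.36, adjusted p = 0.0300), a call lost in 5 of 12 (with the replicate block, with quantile normalization or without any of the mimic libraries, adjusted p = 0.0516 to 0.0851). ARID3B, ARID4B and ARID5B had fold changes of -0.27, -0.06 and -0.14 and did not pass the test. ARID3B was called after quantile normalization (adjusted p = 0.0311) and without replicate 3 of the mimics (adjusted p = 0.0213), and ARID5B after quantile normalization (adjusted p = 0.0237). Of the exon bases of ARID4B, 14.5% are shared on the same strand with RBM34, which rose (fold change 0.36, limma adjusted p = 0.0419). The transcript listed for ARID4B is annotated as a target of nonsense-mediated decay.

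Every ISWI gene in the set fell, where 16.8% of all genes did. All 5, the motors SMARCA1 and SMARCA5 and the partner subunits BAZ1A, BAZ1B and BAZ2A, were lower with mimics without overlap between groups, with fold changes from -0.48 to -0.23. Of all 14959 genes, 3393 were lower without overlap. Of 8 further ISWI partners outside the set, 1 fell, 1 rose and 6 did not pass the test. SMARCA5 (SNF2H), the more widely used ISWI motor, was at 13.1, 13.6 and 13.5 FPKM with mimics and 16.6, 15.8 and 16.7 FPKM with control. The mean was 81.9% of control (fold change -0.27, SE 0.0430, adjusted p = 0.00338).

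SMARCA1 (SNF2L), the second ISWI motor, was at 30.3, 29.5 and 28.9 FPKM with mimics and 33.7, 36.4 and 36.6 FPKM with control, again with no overlap. It fell to 83.1% of control (fold change -0.26, SE 0.0454, adjusted p = 0.00501). Per length, SMARCA1 was thus the more abundant of the pair in UM-SCC1. The ratio of SMARCA1 to SMARCA5 FPKM was 2.21 ± 0.0949 with mimics and 2.18 ± 0.142 with control, and the 2 sets of ratios overlapped (exact permutation test, two-sided, p = 0.9, also after adjustment).

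BAZ1A (ACF1), the partner of SMARCA5 in the ACF and CHRAC complexes, changed most within the ISWI group. The 3 mimic libraries held 14.9, 14.6 and 13.9 FPKM and the control libraries 20.5, 20.3 and 20.6 FPKM. These values left a wide gap between groups, and the mean fell to 70.6% of control (fold change -0.48, SE 0.0410, adjusted p = 0.000327). BAZ1B (WSTF), the partner in the WICH complex, was at 15.4, 15.8 and 15.5 FPKM with mimics and 18.8, 18.4 and 19.5 FPKM with control. It fell by 0.27 on the log2 scale (SE 0.0409, adjusted p = 0.00295). BAZ2A (TIP5), the partner in the nucleolar silencing complex NoRC, was at 18.7, 19.7 and 21.2 FPKM against 25.3, 21.8 and 23.4 FPKM, a narrow separation. Its fold change was -0.23 (SE 0.0696, adjusted p = 0.0374), and that call was lost in 5 of the 12 alternatives (with the replicate block or without replicate 1 or 2 of the mimics or replicate 1 or 3 of the control, adjusted p = 0.0759 to 0.106), whereas those of the other 4 ISWI genes held in all 12.

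**Figure D2:**
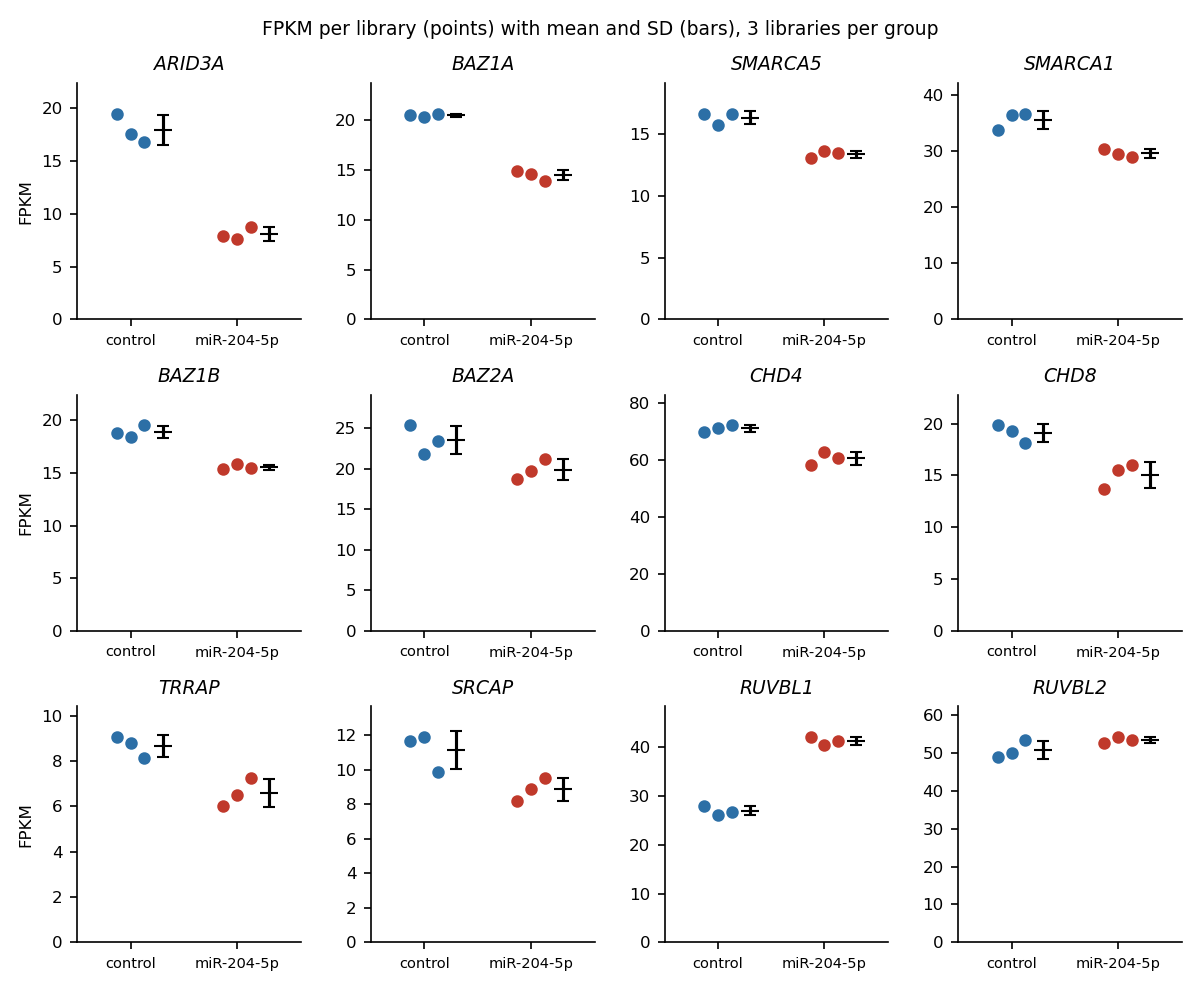
FPKM (y axis, from 0) of 12 remodeler genes in each library, control mimics in blue and miR-204-5p mimics in red, with the mean and SD of each group (n = 3) as bars beside the points. ARID3A and BAZ1A show the widest gaps downward and RUVBL1, at 40.5 to 42.2 against 26.2 to 28.0 FPKM, the widest upward, whereas the RUVBL2 libraries of the groups overlap.

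The SWI/SNF motors moved little. SMARCA4 (BRG1) was at 19.7, 18.2 and 18.9 FPKM with mimics and 17.5, 16.4 and 17.1 FPKM with control, with no overlap but a small gap. It passed the test narrowly (fold change 0.15, SE 0.0473, adjusted p = 0.0483), and that call was lost in 10 of the 12 alternatives (the replicate block, the 3 scalings and each library left out, adjusted p = 0.0506 to 0.152). SMARCA2 (BRM), the other motor, was at 3.43, 3.96 and 3.51 FPKM with mimics and 3.85, 3.93 and 4.07 FPKM with control, with overlapping groups (fold change -0.10, SE 0.0669, adjusted p = 0.289). The ratio of SMARCA4 to SMARCA2 FPKM was 5.25 ± 0.590 with mimics and 4.32 ± 0.202 with control, without overlap (exact permutation test, p = 0.1, the smallest that 3 against 3 allows, and 0.3 after adjustment over the 6 ratios compared). The level of that ratio rests on gene lengths that are uncertain, since the transcript listed for SMARCA2 has 162 of the 7061 bases of its longest.

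The shared SWI/SNF subunits went both ways. ACTL6A (BAF53A), an actin-related subunit that SWI/SNF shares with INO80 and TIP60 complexes, was at 43.4, 42.3 and 41.1 FPKM with mimics and 33.1, 32.5 and 35.8 FPKM with control. The groups were well apart (fold change 0.32, SE 0.0480, adjusted p = 0.00279). SMARCE1 (BAF57), an HMG-box subunit, also rose, to 5.70 ± 0.114 from 4.67 ± 0.149 FPKM (fold change 0.24, adjusted p = 0.0121). The scaffold genes SMARCC1 (BAF155) and SMARCC2 (BAF170) fell together, with fold changes of -0.18 and -0.19 (adjusted p = 0.0276 and 0.0427), calls lost in 5 and 6 of the 12 alternatives. These were the replicate block and any control library left out for both, replicate 1 of the mimics left out for both and replicate 2 for SMARCC2, with adjusted p = 0.0507 to 0.0802 for SMARCC1 and 0.0785 to 0.121 for SMARCC2.

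Their ratio was 1.05 ± 0.0652 with mimics and 1.04 ± 0.0359 with control, with overlapping values (exact permutation test, two-sided, p = 0.9, also after adjustment). SMARCB1 (SNF5/INI1), the core subunit lost in rhabdoid tumors, was at 14.6 to 15.7 FPKM with mimics and 11.7 to 14.6 FPKM with control, just without overlap, and did not pass (fold change 0.24, adjusted p = 0.0604), though it did without replicate 2 of the control (fold change 0.34, adjusted p = 0.00797). SMARCD1, SMARCD2 and SMARCD3 had overlapping groups and fold changes of 0.19, 0.01 and -0.11.

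Of the 5 BAF-defining subunits in the set 3 fell, and of the 3 PBAF-defining subunits in it none passed the test. Over all genes, 16.8% fell. PHF10, a PBAF subunit outside the set, fell from 12.3 ± 0.331 to 10.2 ± 0.0537 FPKM without overlap (fold change -0.24, limma adjusted p = 0.00503). ARID1A, the BAF subunit most often mutated in cancer, was at 10.9, 11.8 and 12.5 FPKM with mimics and 14.8, 14.5 and 13.6 FPKM with control. The groups did not overlap (fold change -0.27, SE 0.0613, adjusted p = 0.0138), and of the 12 alternatives the replicate block alone ended the call (adjusted p = 0.0502). Its paralog ARID1B, which takes the same place in the complex, was at 2.10, 2.45 and 1.98 FPKM against 3.03, 2.98 and 2.86 FPKM and fell by 0.32 on the log2 scale (SE 0.0737, adjusted p = 0.0145).

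DPF2, a reader of acetylated histones, fell from 45.4 ± 1.02 to 39.5 ± 1.10 FPKM (fold change -0.20, adjusted p = 0.00676). The ratio of ARID1A to ARID1B was 5.44 ± 0.785 with mimics and 4.84 ± 0.0674 with control, with overlapping values (exact permutation test, two-sided, p = 0.3, adjusted 0.6). BRD9, which marks the non-canonical form of BAF, was at 12.2 ± 0.699 against 10.6 ± 0.768 FPKM and did not pass (adjusted p = 0.0603), nor did DPF1. BRD9 was called with the filter (adjusted p = 0.0498) and without replicate 2 of the control (adjusted p = 0.0451).

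Among the PBAF subunits, ARID2, PBRM1 and BRD7 had fold changes of -0.14, -0.02 and 0.04. PBRM1 (BAF180) was at 3.43, 2.47 and 2.47 FPKM with mimics and 3.57, 2.45 and 2.50 FPKM with control, so replicate 1 was the highest in both groups. Of the exon bases of BRD7, 42.3% also lie on the opposite strand in exons of ADCY7, whose own fold change was -0.15 (adjusted p = 0.211), and whether the authors' counting used the strand is not given in the sources used here.

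Of the 10 CHD genes, CHD4 and CHD8 fell (20%), CHD1L rose (10%) and 7 did not pass. Over all genes, 16.8% fell and 23.9% rose. CHD4 (Mi-2β), the NuRD motor, was the most abundant ATPase of the set, at 58.3, 62.9 and 60.6 FPKM with mimics and 69.9, 71.4 and 72.2 FPKM with control. No mimic library reached a control library, and the mean was 85.2% of control (fold change -0.23, SE 0.0392, adjusted p = 0.00463). CHD3, its paralog in NuRD, was at 26.1, 27.3 and 25.4 FPKM with mimics and 33.5, 31.1 and 27.3 FPKM with control. The groups overlapped at their edges and CHD3 did not pass (fold change -0.21, SE 0.0765, adjusted p = 0.0695). It did in 3 of the 12 alternatives, after scaling to equal sums or medians (adjusted p = 0.0459 and 0.0388) and without replicate 3 of the control (adjusted p = 0.0137). The ratio of CHD4 to CHD3 was 2.31 ± 0.0769 and 2.34 ± 0.282, with overlapping values (exact permutation test, two-sided, p = 0.9, also after adjustment). Of the exon bases of CHD4, 46.9% are shared on the same strand with the gene AC006064.6, which was listed at no more than 1.32 FPKM.

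CHD8, which binds β-catenin and is known for its role in autism, was at 13.6, 15.5 and 16.0 FPKM with mimics and 19.8, 19.3 and 18.1 FPKM with control. It fell to 79.0% of control without overlap (fold change -0.32, SE 0.0690, adjusted p = 0.0107). CHD1L (ALC1), a poly(ADP-ribose)-activated remodeler that works in DNA repair, went the other way, at 24.0, 26.2 and 24.8 FPKM against 19.3, 21.0 and 20.8 FPKM. Its fold change was 0.28 (SE 0.0524, adjusted p = 0.00601).

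The remaining CHD genes gave no call with all 6 libraries. CHD1, which travels with elongating polymerase, was at 8.51, 8.76 and 9.01 FPKM with mimics and 9.06, 7.63 and 8.38 FPKM with control. CHD2 was at 11.0, 11.7 and 11.6 FPKM with mimics and had widely spread controls at 15.5, 9.78 and 14.1 FPKM. Both genes had overlapping groups, with fold changes of 0.06 and -0.16. That of CHD2 ranged from -0.35 to -0.04 with 1 library left out, and CHD2 was called without replicate 2 of the control (adjusted p = 0.0126). Of the exon bases of CHD2, 10.2% are shared on the same strand with AC013394.1. That gene was at 6.80, 4.87 and 6.34 FPKM with mimics and 6.42, 8.27 and 6.41 FPKM with control. Its part in the spread of CHD2 was not tested. CHD6 was at 5.27, 5.45 and 5.66 FPKM with mimics and 5.77, 5.67 and 5.70 FPKM with control. CHD7, the gene of CHARGE syndrome, was at 8.49, 10.2 and 10.3 FPKM with mimics and 10.6, 10.3 and 8.97 FPKM with control. Of these, CHD6 just avoided overlap at a fold change of -0.06, and CHD7 overlapped at -0.04. CHD9 was at 4.04, 4.53 and 4.30 FPKM with mimics and 3.81, 3.37 and 4.15 FPKM with control (fold change 0.15, adjusted p = 0.193). CHD5, a mainly neural gene, was close to nil, at 0.0465, 0.0199 and 0.0194 FPKM against 0.0187, 0.0218 and 0.0249 FPKM.

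**Figure D3:**
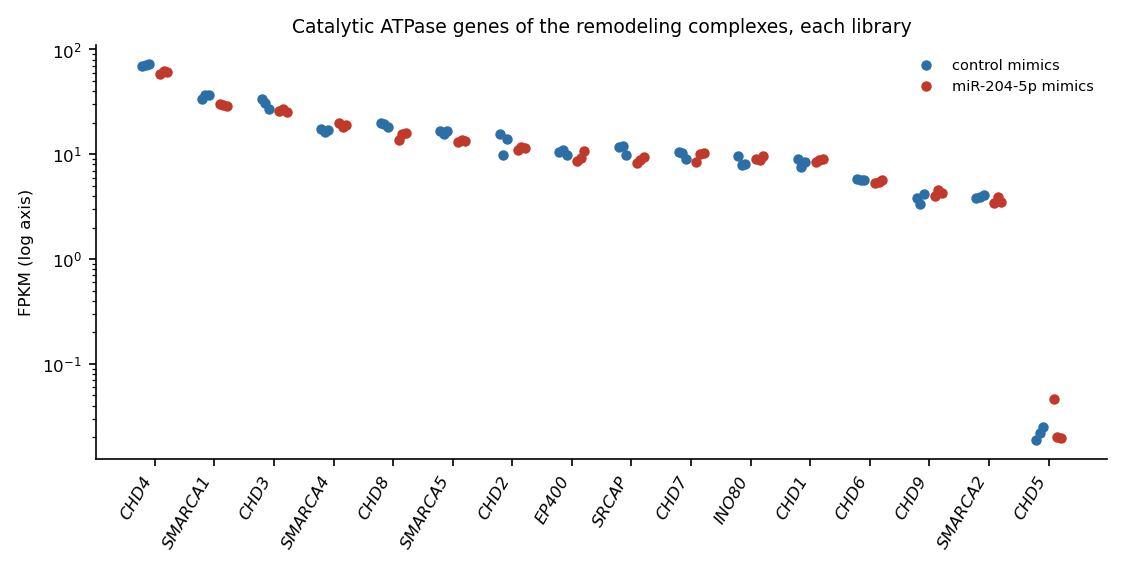
FPKM per library (log axis) of 16 ATPase genes of the SWI/SNF, ISWI, CHD and INO80 families, ordered by the mean over all 6 libraries, with control mimics in blue and miR-204-5p mimics in red. CHD4 leads at 58.3 to 72.2 FPKM and CHD5 ends the order at 0.0187 to 0.0465 FPKM, and this range over genes is far wider than the difference between groups within any gene.

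Over the 6 libraries, the mean level per length ran from 65.9 FPKM for CHD4 through 32.6 for SMARCA1, 28.4 for CHD3, 18.0 for SMARCA4, 17.1 for CHD8 and 14.9 for SMARCA5 down to 3.79 for SMARCA2 and 0.0252 for CHD5. The ranges of SMARCA1 and CHD3 overlapped. From SMARCA4 through CHD8, SMARCA5, CHD2, EP400, SRCAP, CHD7 and INO80 to CHD1, each gene overlapped with the next in the order. CHD4 stood clear above, CHD6 lay below CHD1 without overlap, CHD9 and SMARCA2 overlapped below CHD6, and CHD5 was last.

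In the INO80, SRCAP and TIP60/p400 group 2 of 10 genes fell (20%), 1 rose (10%) and 7 did not pass, where 16.8% of all genes fell and 23.9% rose. RUVBL1 (Pontin), an AAA+ ATPase that forms a ring with RUVBL2 in these complexes, had the largest increase of all members with a call. It was at 42.2, 40.5 and 41.4 FPKM with mimics and 28.0, 26.2 and 26.7 FPKM with control. The groups lay far apart, and the mean with mimics, 41.4 ± 0.811 FPKM, was 153% of the control mean of 27.0 ± 0.930 FPKM (fold change 0.60, SE 0.0397, adjusted p = 0.000139). Its listed transcript, at chr3:128064778-128097496 on the minus strand, is annotated as a target of nonsense-mediated decay, and the table gives 1 value for the gene. RUVBL1 shares 344 exon bases on opposite strands with SEC61A1, which fell (fold change -0.66), and 370 with EEFSEC.

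RUVBL2 (Reptin), the partner of RUVBL1 in the ring, was at 52.7, 54.2 and 53.4 FPKM with mimics and 48.8, 50.1 and 53.3 FPKM with control. Its groups overlapped and it did not pass (fold change 0.07, SE 0.0425, adjusted p = 0.208). The ratio of RUVBL1 to RUVBL2 was 0.800, 0.748 and 0.775 with mimics and 0.574, 0.523 and 0.502 with control. These ratios did not overlap (exact permutation test, two-sided, p = 0.1, the smallest possible, and 0.3 after adjustment over the 6 ratios). Their level rests on a gene length that is uncertain, since the transcript listed for RUVBL1 has 1113 of the 4062 bases of its longest.

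TRRAP, the large scaffold that TIP60 shares with the SAGA acetyltransferase complex, was at 6.01, 6.51 and 7.26 FPKM with mimics and 9.07, 8.78 and 8.12 FPKM with control. It fell without overlap to 76.2% of control (fold change -0.35, SE 0.0773, adjusted p = 0.0123). SRCAP, the motor that deposits H2A.Z, was at 8.22, 8.86 and 9.50 FPKM with mimics and 11.7, 11.9 and 9.89 FPKM with control, a narrow separation. Its fold change was -0.30 (SE 0.0847, adjusted p = 0.0300), a call lost in 5 of the 12 alternatives (with the replicate block or without replicate 1 or 2 of either group, adjusted p = 0.0755 to 0.0922). Of the exon bases of SRCAP, 74.1% are also annotated on the same strand as part of AC106886.5, a gene at 4.64 to 6.20 FPKM whose fold change was -0.18 (adjusted p = 0.123), so reads of these genes could be split between them. The same holds for 327 bases shared with TMEM265, which rose (fold change 1.56).

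The other motors of the group did not pass. EP400, the motor of the TIP60/p400 complex, was at 8.71, 9.31 and 10.8 FPKM with mimics and 10.5, 11.1 and 9.88 FPKM with control. INO80 was at 8.94, 8.83 and 9.64 FPKM with mimics and 9.64, 7.90 and 8.01 FPKM with control. Both had overlapping groups, with fold changes of -0.12 and 0.09. Of the INO80 accessory subunits, INO80C, INO80D and INO80E had fold changes of -0.07, -0.20 and -0.03, with INO80D called after quantile normalization (adjusted p = 0.0338), and SMARCAL1 and SMARCAD1, SNF2-type motors of replication fork and repair work, had 0.05 and 0.00.

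INO80B had an estimate as large as that of RUVBL1 but no call, and its libraries were scattered. It was at 10.4, 13.9 and 14.8 FPKM with mimics and 14.5, 7.70 and 4.62 FPKM with control, with overlap (fold change 0.61, SE 0.352, adjusted p = 0.220). With 1 library left out the fold change ranged from 0.26, without replicate 3 of the control, to 0.99, without its replicate 1, where INO80B was called (adjusted p = 0.0243). The read-through gene INO80B-WBP1, with which INO80B shares 1096 exon bases (72.0% of its own), was listed at 8.73, 0 and 0 FPKM with mimics and 0, 6.90 and 7.56 FPKM with control. In each library where the read-through gene was above 0, INO80B was lower than in each of the libraries where it was listed at 0. The sum of both genes was 19.1, 13.9 and 14.8 FPKM with mimics and 14.5, 14.6 and 12.2 FPKM with control, which overlapped.

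**Figure D4:**
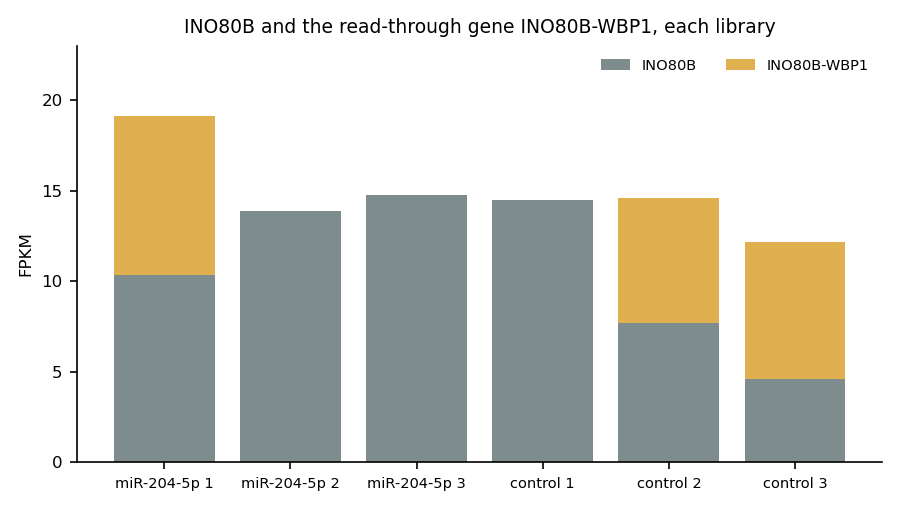
FPKM of INO80B (gray) and of the overlapping read-through gene INO80B-WBP1 (yellow), stacked for each of the 6 libraries; the y axis starts at 0. The read-through gene was above 0 in 3 libraries and listed at 0 in 3, and the stacks reached 12.2 to 19.1 FPKM.

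Other subunits of the same complexes, taken from a list of 55 genes of which 54 were in the table, were described in the same way. Of these, 16 were lower (29.6%, against 16.8% of all genes) and 5 higher (9.26%, against 23.9%), with a median fold change of -0.13. The count of lower genes was 10 without replicate 3 of the mimics and 22, 22 and 23 under the 3 scalings. By complex, 5 of 10 NuRD subunits fell and 1 rose, 3 of 10 SWI/SNF subunits fell and none rose, and 1 of 8 ISWI partners fell and 1 rose. In the INO80 complex 1 of 7 fell and 1 rose, among SRCAP and TIP60 subunits 4 of 13 fell and 1 rose, and of 6 more SNF2-type ATPases 2 fell and 1 rose.

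The largest decreases in this list were those of HDAC1, the deacetylase of NuRD, from 126 ± 2.49 to 62.5 ± 2.89 FPKM (fold change -0.995), HLTF, a SNF2-type fork remodeler (fold change -0.59), and CDK2AP1, a small NuRD subunit (fold change -0.46). The largest increases were those of YEATS4, the acetyl-lysine reader of the SRCAP and TIP60 complexes, from 9.93 ± 0.405 to 16.5 ± 1.36 FPKM (fold change 0.68), UCHL5, the deubiquitinase bound to INO80 (fold change 0.55), and RBBP7, a histone-binding subunit shared by NuRD and ISWI complexes (fold change 0.48). With CHD4, the NuRD genes that fell were HDAC1, MTA2, MBD2, GATAD2B and CDK2AP1, while HDAC2 (fold change 0.26) and RBBP7 rose. RBBP7 was counted above with the ISWI partners.

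Matches to the seed were described next. Of the 51 members with an annotated 3'UTR, 17 (33.3%) held a match of 7 or 8 bases in the longest one, against 27.1% of 14664 genes, with median 3'UTR lengths of 1695 and 1251.5 bases. Of the 17 members with a match, 6 fell and 1 rose, and 10 did not pass. Of all genes with such a match 27.0% fell and 16.4% rose, and of those with none 12.5% fell and 28.1% rose. Among genes averaging at least 1 FPKM, as most members did, 32.4% of those with such a match fell and 18.3% rose. Of such genes with none, 14.5% fell and 32.4% rose.

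Each match class held few members. Over all genes, 33.5% of those with an 8mer fell, 25.5% with a 7mer-m8, 22.3% with a 7mer-A1 and 18.3% with a 6-base match. Among genes averaging at least 1 FPKM, these shares were 40.6%, 30.3%, 26.8% and 21.4%. Of 8 members with an 8mer, ARID1B fell, SMARCE1 rose and 6 did not pass (ARID3B, CHD5, CHD7, DPF1, INO80D and SMARCA2). All 4 members whose best match was a 7mer-m8 fell: BAZ1B, BAZ2A, ARID4A and TRRAP. Of 5 with a 7mer-A1, SMARCA5 fell and the others (BRD7, CHD2, EP400 and PBRM1) did not pass. Of 5 with only the 6-base match, ARID3A and BAZ1A fell and the others (ARID5B, CHD3 and INO80) did not pass. Of the 29 with none of these, 8 fell (SMARCC1, SMARCC2, ARID1A, DPF2, SMARCA1, CHD4, CHD8 and SRCAP) and 5 rose (SMARCA4, ACTL6A, ARID5A, CHD1L and RUVBL1). Thus 3 of the 5 ISWI genes held a match of 7 bases, BAZ1A held 6 bases, and SMARCA1 held none in its longest 3'UTR. A match is a description of the sequence and not evidence of binding.

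The count of members with a match depended on the 3'UTR read. With all annotated 3'UTRs of a gene joined it was 18, and in the transcript with the longest coding sequence, an alternative chosen after the data had been seen, it was 13. In that transcript DPF1, ARID1B, SMARCA2, PBRM1 and BRD7 had no match of 7 or 8 bases, and INO80C had a 7mer-m8. Under either alternative the 7mer-m8 class held 5 members, of which 4 fell and INO80C did not pass. In the transcript with the longest coding sequence, the 8mer class held 5 members, of which none fell and 1 rose.

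**Figure D5:**
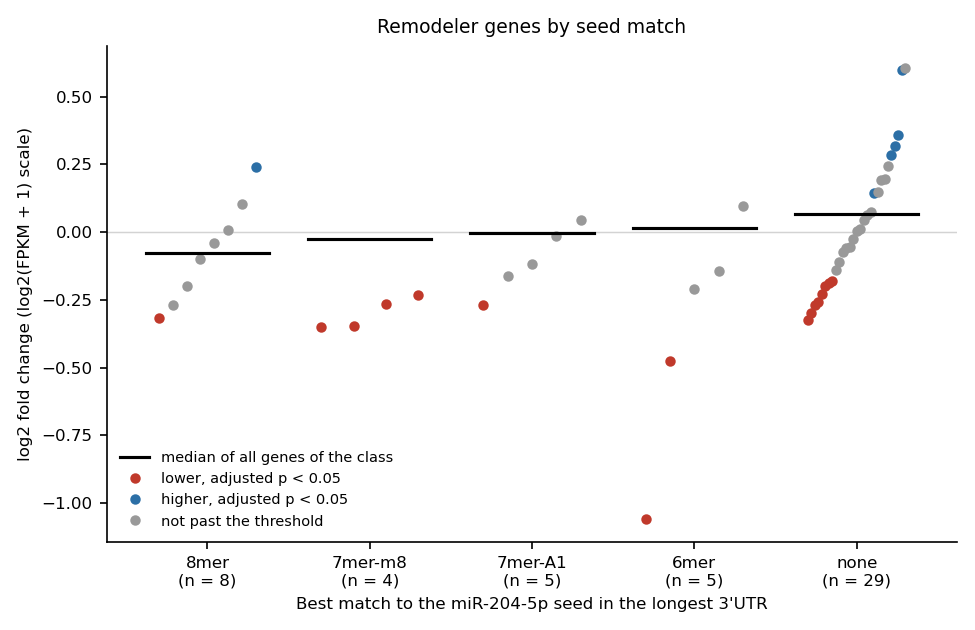
Log2 fold change (y axis, log2(FPKM + 1) scale) of the 51 remodeler genes with an annotated 3'UTR, by their best match to the miR-204-5p seed (x axis; n is the number of members), with black lines for the median of all genes of each class. All 4 members of the 7mer-m8 class lie below 0, the 8mer class holds 1 gene that rose and 1 that fell, and ARID3A lies lowest, in the 6mer class.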

How the data were processed

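Per the labels, RNA came from UM-SCC1 cultures that had received mimics of miR-204-5p or control mimics (3 libraries each), and the submitters' processing notes name HISAT2, StringTie and hg38, with no roles or versions. The study used TruSeq libraries on a HiSeq X system. The authors deposited FPKM values for 14959 genes, with their own fold changes, p-values and FDR, none of which were used. With edgeR, the paper reported fewer differentially expressed genes than the 6098 called here, and the calls of the tests were not compared. Read counts were not at hand, so the count test was replaced by limma (version 3.58.1, run in R 4.3.3), in which lmFit and a trended eBayes were applied to log2(FPKM + 1), two-sided, with no filter and the Benjamini-Hochberg adjustment over all genes at 0.05. The script was tested on simulated data. Depth was inferred from the smallest steps of FPKM times length in genes with 1 annotated transcript (25.9% to 29.0% of low values were whole within 0.02, against 3.07% to 3.37% at other steps). It limits the precision of low genes.

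Transcripts, exons and 3'UTRs came from GENCODE 29 (GRCh38), where all 52 members were found and 51 had the coordinates of the table, and the miRNA sequence from RefSeq. Each gene is listed with 1 transcript, which for SMARCA2, SRCAP, TRRAP and SMARCAL1 is a small part of the longest. For RUVBL1, SMARCB1, INO80E and BRD7 it is 27.4%, 33.2%, 47.1% and 48.0% of the longest. The length behind the FPKM levels of all these genes is thus uncertain. Overlapping exons were counted for 18 members. Python 3.11.15, numpy 2.4.6 and pandas 2.3.3 were used.

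The members and lists were chosen with earlier results of these data known. Every member could be named. Values in every library were due for members with an adjusted p under 0.05 and a fold change of at least 0.5 in size, for the ATPases and for TRRAP, and the other subunits named were the 3 largest changes in each direction. The remaining NuRD subunits, PHF10 and the overlapping genes were named after their values had been seen. The alternatives were log2(FPKM + 0.1), a filter at a mean of 1 FPKM, the replicate number as a block, 3 scalings, each library left out in turn and other 3'UTRs. The edgeR and DESeq2 alternatives, meant for counts, were not run.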

Additional observations from a re-analysis of the deposited data

How the results depend on the processing

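Of the 22 members called, 14 kept their call in all 12 alternatives of the test and 8 lost it in at least 1 (ARID1A with the replicate block only, and ARID4A, ARID5A, BAZ2A, SMARCA4, SMARCC1, SMARCC2 and SRCAP in 4 to 10 settings each), and none of the 22 changed direction. Of the 30 not called, 8 were called in at least 1 alternative. The number of members called was 22 with a pseudocount of 0.1, 23 with the filter, 22 after scaling to equal sums or medians, 23 after quantile normalization and 15 to 21 with a library left out. Over all genes, the deviations of same-numbered libraries had correlations of -0.0318, -0.015 and -0.0908. These values alone do not settle whether the numbers pair the libraries. In PBRM1, replicate 1 was the highest in both groups. With the replicate block 15 members were called, 11 lower and 4 higher, beside 5096 of all genes in place of 6098. The share of lower genes among called members was 72.7%, and 77.3% to 82.6% under the 3 scalings, where the median of all genes was 0.01, 0.01 and 0.00. Over all genes that share was 41.3%, and 48.4% to 49.9% under the scalings. With a library left out the share among members was 64.7% to 81%. The lower count of the other subunits was 16, 10 to 14 with a library left out, and 22, 22 and 23 under the 3 scalings.

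Fold changes near 0 turned direction in 8 members without a call, and the cause was not tested. SMARCD2 was at -0.0314 after scaling to equal sums, -0.0325 to equal medians, -0.0049 after quantile normalization and -0.131 to 0.0894 with a library left out, and SMARCAD1 at -0.038, -0.039, -0.0063 and -0.0467 to 0.0363. SMARCAL1 was at -0.0111 after quantile normalization. With a library left out, SMARCAL1 ranged from -0.0112 to 0.0742, PBRM1 from -0.1335 to 0.1155, CHD7 from -0.1089 to 0.0397, DPF1 from -0.0108 to 0.1671, CHD5 from -0.003 to 0.0159 and INO80E from -0.0717 to 0.0112. Depth limits CHD5, DPF1 and INO80C, the members with a mean under 1 FPKM, with an implied 2.54 to 51.1 fragments per library.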
